A study of Mus musculus with 4 samples.

Results

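The genes described are the metallothioneins Mt1 and Mt2, the zinc sensor Mtf1 and 6 membrane transporters of zinc and related metals, Slc30a1, Slc30a2, Slc30a10, Slc39a4, Slc39a5 and Slc39a8. These are 9 of 18193 genes measured, and all probe sets annotated to 1 of them and to no other gene were taken, which gave 17 of the 45037 probe sets tested. A probe set combines several short probes for the same transcript into 1 value. The genes were chosen by their role in zinc handling and with their knockout and control intensities on these 4 arrays in view. RNA of isolated jejunal crypts of mice, where intestinal stem cells and their dividing progeny sit, was measured on Affymetrix arrays. The 2 knockout arrays came from YY1 f/f mice that carry Vil-Cre-ERT2 and had tamoxifen for 4 days. The Villin promoter drives this tamoxifen-inducible Cre in gut epithelium. The labels call the other 2 arrays control, do not give their genotype and do not settle whether Cre-ERT2 was present. An entry of 4 days of tamoxifen stands in the labels of these 2 arrays as in those of the knockout arrays. It does not by itself settle how the controls were treated. All 4 samples are of the strain C57BL/6J enriched. The titles call the replicates biological, and whether animals were pooled is not given.

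Metallothioneins are small proteins rich in cysteine that bind zinc, copper and cadmium, and gut epithelium makes more of them when zinc is plentiful. MTF1, the metal-responsive transcription factor 1, binds zinc and then switches on metallothionein genes through short DNA motifs called metal response elements (MRE). Transporters of the SLC30 (ZnT) family move zinc out of the cytosol, to the outside or into vesicles. Those of the SLC39 (ZIP) family move it into the cytosol.

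Promoter sequences are shown because the metallothioneins were higher while several transporters were lower in the same arrays. RefSeq windows of 250 bases before a transcript start (build GRCm38.p6) were found for 8 of the 9 genes. They were searched on both strands for 2 forms of the MRE core, TGCGCNC and TGCACNC, where N is any base. Of 32851 such windows of all genes, 21.4% held at least 1 match, 5.17% at least 2 and 1.26% at least 3, with overlapping matches counted separately. Mt2, which was higher in the knockout, and Slc30a10, which was lower, each held 3 matches. Below, matches are in capitals, on the strand of the gene, and positions count backwards from the start.
Mt2, chr8:94172368-94172617 (+): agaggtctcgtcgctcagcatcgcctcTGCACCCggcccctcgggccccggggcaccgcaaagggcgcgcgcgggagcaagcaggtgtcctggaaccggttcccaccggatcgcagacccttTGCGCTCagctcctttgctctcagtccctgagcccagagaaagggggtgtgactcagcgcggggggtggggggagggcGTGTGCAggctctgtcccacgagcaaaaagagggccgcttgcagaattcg
Slc30a10, chr1:185454598-185454847 (+): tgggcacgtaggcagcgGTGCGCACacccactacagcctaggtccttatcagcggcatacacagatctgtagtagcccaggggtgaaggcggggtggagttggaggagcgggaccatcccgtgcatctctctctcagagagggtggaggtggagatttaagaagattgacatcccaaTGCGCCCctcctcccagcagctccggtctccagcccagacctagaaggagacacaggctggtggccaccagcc

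In Mt2 the matches began 223, 128 and 50 bases before the start. In Slc30a10 they began 233, 232 and 73 bases before it, and the first 2 lie on opposite strands of nearly the same bases. The windows of Mt1, Slc30a1 and Slc30a2 overlap the records of the genes themselves, and only short stretches around their matches are given.
Mt1, chr8:94179056-94179082 (+): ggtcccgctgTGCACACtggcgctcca
Slc30a1, chr1:191906728-191906754 (+): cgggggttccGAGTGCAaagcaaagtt
Slc30a2, chr4:134343248-134343276 (+): tcccGCGCGCAacttcgaGGGCGCAccga
The Mt1 window follows a single RefSeq start and held 1 match. The gene record begins 44 bases into that window, so bases near another start of Mt1 were not all searched. Bases after the start used were not searched in any window. The 1 match is therefore not a full count for the Mt1 promoter and is not comparable with the counts of Mt2 and Slc30a10. The windows of Slc30a2 and Slc39a8 and 1 of those of Slc39a5 lie wholly inside the gene records, so for Slc30a2 and Slc39a8 the bases before the record were not searched at all. Slc39a5 and Slc39a8 each had 1 match in 1 of their 2 windows, and Mtf1 had none. A core of the antioxidant response element, TGACNNNGC, matched in 4 of the 8 genes (Mt2, Slc30a1, Slc39a5 and Slc39a8). In Slc39a5 and Slc39a8 it matched in 1 of their 2 windows. Of all windows 10.2% hold this core, a share of windows and not of genes. A YY1 core, CCATNTT, held by 12.4% of all windows, matched in 0 of the 10 windows of these genes. Both were searched on both strands. A match is a run of letters and was not tested for binding, and a window without one says nothing of the factor.

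Values are linear intensities as deposited, in arbitrary units. Log2 differences are knockout minus control on log2(intensity + 16), with the standard error (SE) of a limma fit over all probe sets. For the marker lists and the other gene lists, the brightest probe set of each gene was used. Its SE, adjusted p and call come from a separate fit over 18193 genes. Group values are means ± SD with n = 2 arrays per group. A feature was called at a Benjamini-Hochberg adjusted p under 0.05 over all features tested. The genes were proposed with this contrast in view, so their differences and calls are descriptions and no p-value is given for them.

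Yy1 itself was far lower in both arrays labelled knockout. Its brightest probe set read 1648 and 1681 in the control arrays against 69.4 and 68.1 in the knockout arrays, and its 4 probe sets had log2 differences between -4.31 and -1.37. Their positions against the floxed stretch were not analysed here. Array medians lay between 139 and 143, and the median of 27 Bacillus control probe sets, taken as a measure of background, between 31.9 and 35.6. Of all genes 13.4% were called higher and 10.9% lower. Of marker lists, 11 of 14 enterocyte genes fell (summed intensity 98383 to 99483 in control, 48581 to 70485 in knockout) and 7 of 11 genes of dividing cells rose (20094 to 20111 and 26481 to 27551). Among them the enterocyte gene Alpi fell (log2 difference -1.69), while Mki67 of dividing cells was not called (0.31). Of tuft cell genes 5 of 8 fell, with a median log2 difference of -0.47, and of goblet cell genes 3 of 10. Of crypt markers, the Paneth cell lysozyme Lyz1 was bright, at 11672 and 12081 in control and 10761 and 11538 in knockout. The 9 measured genes of pancreatic acinar cells, which also express Slc30a2 and Slc39a5, summed to only 895 to 958 and 835 to 875, with Cpa1 between 58.2 and 59.8. The Gapdh 3' minus 5' log2 difference, a sign of RNA quality, was 1.40 and 1.44 in control and 1.65 and 1.71 in knockout arrays. Its part in the results was not tested.

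Of the 17 probe sets, 4 were called higher and 3 lower in the knockout, and 10 were not called. Over all 45037 probe sets 10.9% were called higher and 9.09% lower, 20.0% in all. The 2 groups did not overlap in 15 of the 17, 6 of them higher and 9 lower in the knockout. Of all probe sets 59.9% did not overlap, 31.5% being higher and 28.4% lower. The median log2 difference of the 17 was -0.26, against 0.01 for all probe sets. Metallothioneins and Slc39a8 made up the higher calls, and Slc30a2, Slc30a10 and Slc39a5 the lower ones.

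**Figure D1:**
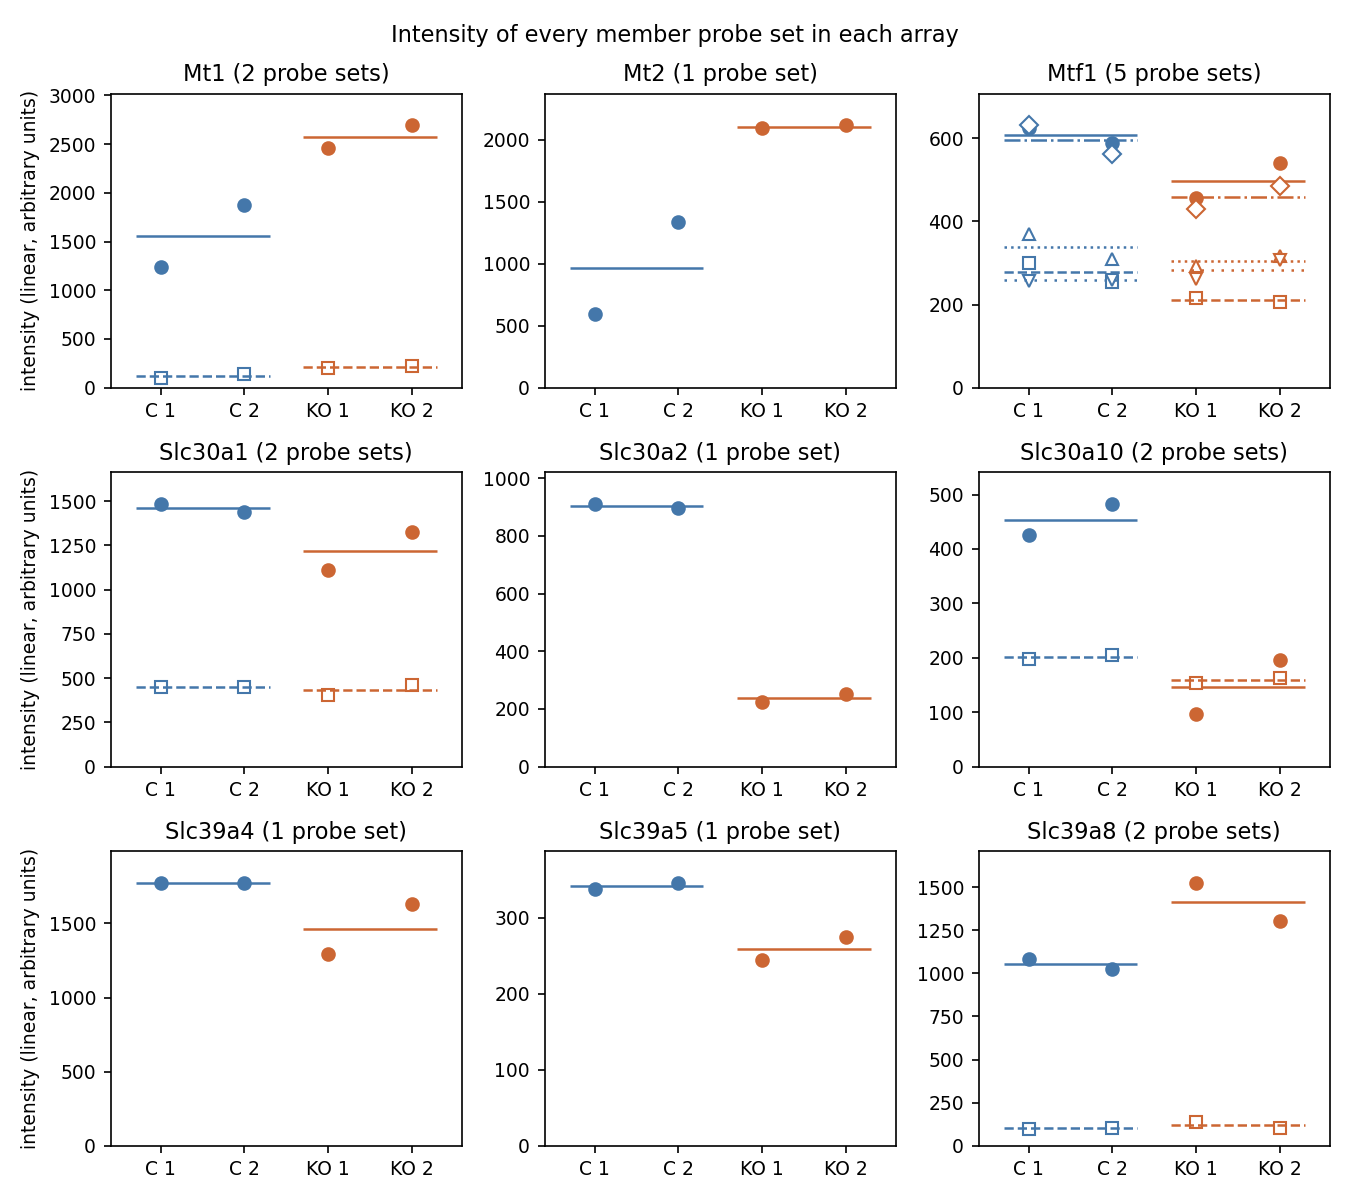
Intensity of each of the 17 probe sets in the control (C, blue) and knockout (KO, orange) arrays, on linear axes from 0 with a panel per gene. Filled circles mark the brightest probe set of a gene, open symbols the others, and horizontal lines the mean of 2 arrays. For Mt2 the control arrays stand at 594 and 1333 and the knockout arrays at 2093 and 2119.8, while Slc30a2 stands at 911 and 895 in control and 225 and 253 in knockout arrays.

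Mt2, the metallothionein with the larger difference, read 594 and 1333 in the control arrays and 2093 and 2119.8 in the knockout arrays. Both knockout arrays were above both controls and nearly equal, while the controls lay far apart. The means were 964 ± 523 and 2106 ± 19.1, a ratio of 2.19 (log2 difference 1.23 ± 0.31). Mt1 followed the same order of arrays. Its brighter probe set read 1238 and 1874 in control and 2458 and 2696 in knockout arrays, a ratio of 1.66 (log2 difference 0.75 ± 0.19). A dimmer probe set of Mt1 read 99.7 and 138 against 206 and 224, a ratio of 1.81 (0.79 ± 0.15). Both probe sets of Mt1 thus gave like differences at very different brightness. The brighter is of a type (suffix _s_at) that can match several transcripts, and Mt1 and Mt2 are close relatives, so some shared signal cannot be told apart.

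The spread within the control group was wide for the metallothioneins. Control replicate 2 was above control replicate 1 by 1.15 (log2) for Mt2, a gap larger than that of 99.9% of the 22518 probe sets brighter than the median, whose median gap was 0.10. For the brighter Mt1 probe set the gap was 0.59, larger than that of 99.3% of these probe sets. Against control replicate 2 alone, the log2 differences were 0.65 for Mt2 and 0.45 for Mt1, and against control replicate 1 alone 1.80 and 1.05. The knockout arrays differed by only 0.02 for Mt2 and 0.13 for Mt1. The size of the metallothionein difference therefore depends on the control array, while its direction was the same against each. The call of Mt2 was lost without either knockout array (log2 difference 1.24 or 1.22). That of the brighter Mt1 probe set was lost without control replicate 1 (0.45), knockout replicate 1 (0.82) or knockout replicate 2 (0.68).

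Mtf1, the zinc sensor that drives metallothionein genes, was measured with 5 probe sets, none of them called. The brightest read 625 and 589.6 in control and 456 and 539 in knockout arrays (log2 difference -0.28 ± 0.12). Another bright probe set read 632 and 562 against 431 and 486 (-0.37 ± 0.11). A dimmer one read 299.7 and 254 against 215 and 205 (-0.37 ± 0.11). In these 3 both knockout arrays lay below both controls. The remaining 2 disagreed in sign, with log2 differences of -0.14 ± 0.12, where the groups overlapped, and 0.12 ± 0.11, where they did not. Higher metallothionein readings thus stood beside Mtf1 readings that were mostly somewhat lower and not called.

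Slc30a1 (ZnT1), which exports zinc across the plasma membrane and is a classical MTF1 target, was not higher as the metallothioneins were. Its brighter probe set read 1484 and 1436 in control and 1111 and 1325 in knockout arrays (log2 difference -0.26 ± 0.12), both knockout arrays being lower. The other read 449 and 449.6 against 404 and 462, groups that overlap (-0.05 ± 0.11). Neither was called.

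Slc30a2 (ZnT2), which loads zinc into vesicles and secretory granules, had the largest difference of the 17 probe sets. It read 911 and 895 in the control arrays and 225 and 253 in the knockout arrays. Both groups were tight and far apart, with means of 903 ± 10.9 and 239 ± 20.1, a 3.78-fold difference (log2 difference -1.85 ± 0.11). Paneth cells, whose granules hold zinc, are a known site of this transporter. Of 17 listed Paneth cell genes 8 were measured, of which 2 rose and none fell by limma, while 24.4% of all 18193 genes were called, 13.4% higher and 10.9% lower. Their summed intensity was 42900.3 and 45462 in control and 44121 and 46102 in knockout arrays. These sums overlap, and most of each comes from Lyz1, Ang4 and Itln1, none of them called. Mmp7 and Defa3 were the genes that rose (log2 differences 0.42 and 0.56). The part of Paneth cells in the Slc30a2 difference was not tested.

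Slc30a10 (ZnT10), a transporter best known for exporting manganese, was also lower, to a different degree in each knockout array. Its brighter probe set read 425 and 483 in control against 97.1 and 196 in knockout arrays. The means were 454 ± 40.5 and 147 ± 69.9, a 3.10-fold difference (log2 difference -1.60 ± 0.26). Knockout replicate 1 stood 2.05 below the control mean and replicate 2 1.15 below it. The other probe set of the gene read 197 and 206 against 154 and 164 (-0.32 ± 0.10) and was not called, so the probe sets share the direction and not the size.

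**Figure D2:**
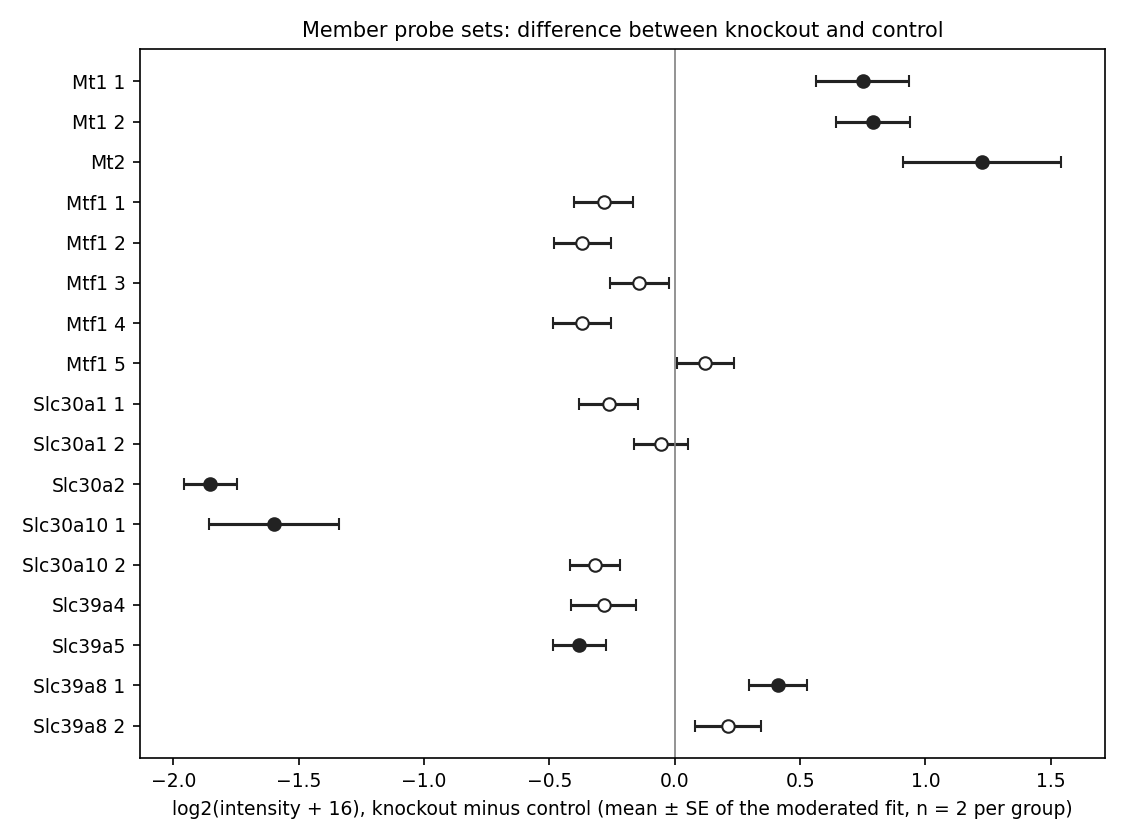
Log2 difference, knockout minus control on log2(intensity + 16), of each of the 17 probe sets, with bars for the SE of the fit (n = 2 arrays per group). Filled circles were called and open circles were not, and number 1 is the brightest probe set of a gene. Slc30a2 at -1.85 and Slc30a10 at -1.60 lie farthest to the left and Mt2 at 1.23 farthest to the right.

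Among the importers, Slc39a4 (ZIP4), which takes up dietary zinc at the enterocyte surface and is mutated in acrodermatitis enteropathica, read 1770.3 and 1773 in the control and 1296 and 1629.8 in the knockout arrays. Both knockout arrays were lower, by unequal amounts, and it was not called (log2 difference -0.28 ± 0.13). Leaving out knockout replicate 1 left a difference of -0.12, not called, and leaving out knockout replicate 2 one of -0.45, which was called. Slc39a5 (ZIP5), an importer of the basolateral membrane, read 339 and 346 against 244 and 275, with no overlap (-0.38 ± 0.11). Its call was lost without control replicate 1 (-0.40), control replicate 2 (-0.37) or knockout replicate 1 (-0.30). Slc39a8 (ZIP8), which imports zinc and manganese, differed in the other direction. Its brighter probe set read 1084 and 1025 in control and 1524 and 1302 in knockout arrays (0.41 ± 0.11), a call lost without control replicate 1 (0.45), control replicate 2 (0.37) or knockout replicate 1 (0.30). A dim probe set of Slc39a8 read 97.9 and 105 against 136 and 105, where only knockout replicate 1 was clearly above the controls (0.21 ± 0.13).

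The transporters that were lower were mostly lower still in knockout replicate 1. This holds for the brightest probe sets of Slc30a1, Slc30a2, Slc30a10, Slc39a4 and Slc39a5. Most of these knockout gaps were not rare among the 22518 probe sets brighter than the median. The gaps of Slc30a2 and Slc39a5 were each larger than 59.1% of theirs, that of Slc30a1 than 78.4% and that of Slc39a4 than 87.7%. Only that of Slc30a10 was larger than 99.5%. The enterocyte marker list had the same order, its mean log2 level being 1.63 below control in knockout replicate 1 and 0.93 below it in replicate 2 (-1.63 and -0.93). Slc39a8 and the dividing cell list, which were higher, also stood farther from control in replicate 1 (0.52 and 0.30, and 0.64 and 0.52). The part of the enterocyte genes in the transporter differences was not tested. In these bulk samples fewer cells of a type and less RNA per cell cannot be told apart. The metallothioneins did not share the order, since Mt2 stood 1.22 and Mt1 0.68 above the control mean in knockout replicate 1, and 1.24 and 0.82 above it in replicate 2.

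**Figure D3:**
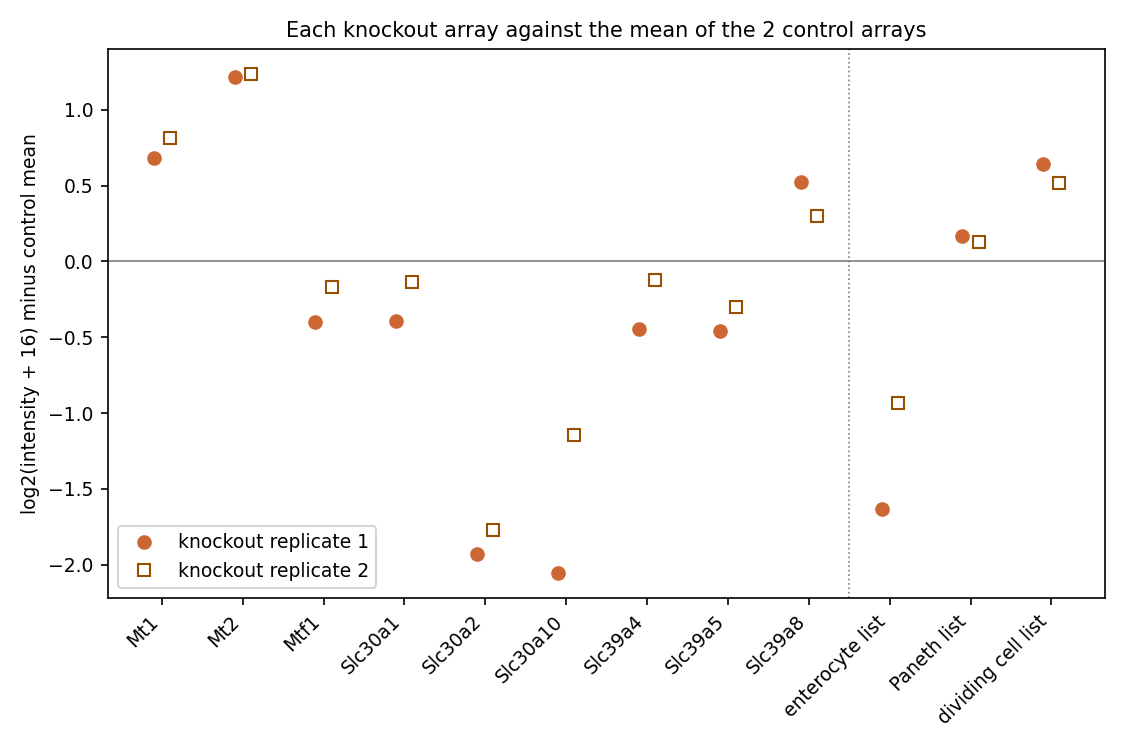
Level of each knockout array minus the mean of the 2 control arrays, on log2(intensity + 16), for the brightest probe set of each gene and, right of the dotted line, the mean of 3 marker lists. For Slc30a10 the points are -2.05 and -1.15 and for the enterocyte list -1.63 and -0.93, while for Mt2 they are 1.22 and 1.24.

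Further lists held 49 measured genes, each described by its brightest probe set. They cover other metallothioneins, zinc transporters, copper handling, genes linked to MTF1, and genes induced by glucocorticoids or by NRF2. These lists too were chosen with earlier results of these data known, so the adjusted p-values given for their genes are descriptions. Over all these lists 6 rose and 6 fell by limma, shares close to the 13.4% and 10.9% of all genes, with a median log2 difference of -0.07 against 0.01 over all genes. Of the 6 that fell, 4 belong to the glucocorticoid and NRF2 lists. The 8 other zinc exporters held 2 rises and 1 fall, with a median of 0.05. The 11 other importers held 2 rises and no fall, with a median of 0.09.

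Slc39a10 (ZIP10), a cell surface importer that MTF1 represses when zinc is high, rose from 248 and 264 in the control to 498 and 467 in the knockout arrays. Its log2 difference was 0.87 ± 0.10 (adjusted p = 0.00184 by limma), and its dimmer probe set gave 1.15 ± 0.14. Slc39a6 (ZIP6), its closest relative and partner in zinc uptake, rose from 796 and 794 to 1648 and 1331 (0.88 ± 0.12, adjusted p = 0.00345 by limma). Of the 3 dimmer probe sets of Slc39a6, 1 was called higher and the others gave 0.15 and 0.18. Both genes were higher in both knockout arrays and stayed called in all 12 alternative analyses.

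Slc30a4 (ZnT4), a vesicular exporter, fell from 1765 and 1687 to 802 and 960 (log2 difference -0.96 ± 0.12, adjusted p = 0.00221 by limma), and it too stayed called in all 12 alternatives. Slc30a6 (ZnT6), which supplies zinc to the early secretory pathway as a partner of ZnT5, rose from 874 and 802 to 1245 and 1197 (0.54 ± 0.10, adjusted p = 0.00926 by limma). Without control replicate 2 its adjusted p was 0.0718. Slc30a7, another exporter of that pathway, rose by 0.33 ± 0.10 (adjusted p = 0.0446 by limma) with its brighter probe set. In the fit over all probe sets that probe set was not called (adjusted p = 0.0548 by limma). The dimmer one gave 0.02, and the call was lost without any 1 of the 4 arrays (adjusted p 0.0838 to 0.222). The ZnT6 partner Slc30a5 read 2157 and 2023 against 2169 and 2132 and was not called.

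Other transporters showed no call. Slc39a14 (ZIP14), which imports manganese and iron as well as zinc, read 1041 and 949 against 796 and 916 with the brightest of its 4 probe sets (log2 difference -0.21). Slc39a7 (ZIP7), which releases zinc from the endoplasmic reticulum, stood at 882 and 771 against 822 and 820.1. Of the other metallothioneins, Mt3 read 549 and 586 in control and 395 and 495 in knockout arrays (-0.35), and the dim Mt4 72.3 and 90.4 against 116 and 94.6 (0.32). Neither passed (adjusted p = 0.0951 and 0.144 by limma), and they lay on opposite sides of 0.

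**Figure D4:**
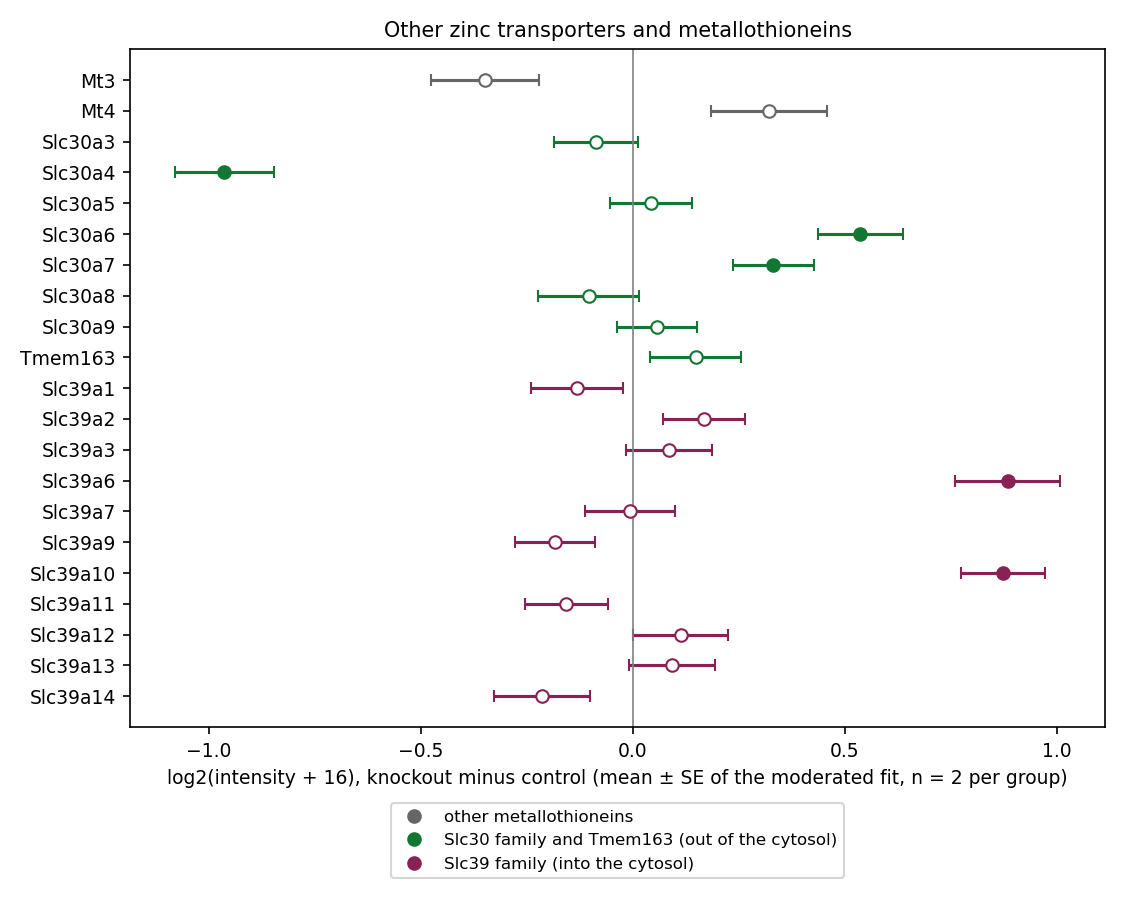
Log2 difference, knockout minus control on log2(intensity + 16), of the brightest probe set of each other metallothionein (grey), zinc exporter (green) and zinc importer (purple), with bars for the SE (n = 2 arrays per group). Filled circles were called. Slc30a4 at -0.96 is the lowest, and Slc39a6 at 0.88 and Slc39a10 at 0.87 are the highest.

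Genes that share inducers with the metallothioneins moved in different directions. Of 5 further genes linked to MTF1, 2 rose and 3 were not called. The selenoprotein gene Selenow rose from 4330.4 and 4194 to 6591 and 6855 (log2 difference 0.66 ± 0.10, adjusted p = 0.00394 by limma). That probe set is of a type (suffix _x_at) that may cross-hybridise. The dimmer probe set of Selenow, without this suffix, was also called higher (0.78 ± 0.12). Csrp1 rose by 0.52 ± 0.12 (adjusted p = 0.0234 by limma), a call lost without control replicate 1, knockout replicate 1 or knockout replicate 2 (adjusted p = 0.137, 0.0806 and 0.0639). Ndrg1 read 2732 and 2625 in control against 1384 and 2151 in knockout arrays (-0.63 ± 0.19, adjusted p = 0.0548 by limma), and 2 of its 5 probe sets were called lower. Gclc read 2187 and 1560.5 against 1281 and 1374 (-0.47 ± 0.16, adjusted p = 0.0769 by limma), and Pgf differed by 0.08, with overlapping groups. Metallothioneins are also induced by glucocorticoids, and of 7 glucocorticoid-induced genes 2 fell and none rose, where 13.4% of all genes were called higher and 10.9% lower, so a count of 0 among 7 is near the share of all genes. Sgk1 fell from 5107 and 3927 to 617 and 1423 (-2.24 ± 0.34, adjusted p = 0.00485 by limma), and was not called with a trended and robust prior (adjusted p = 0.0944). Tsc22d3 fell by 0.97 ± 0.23 on the log2 scale (adjusted p = 0.0207 by limma), a call lost without control replicate 1 (adjusted p = 0.103) or knockout replicate 1 (adjusted p = 0.0897), and its dimmest probe set gave -0.26.

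Metallothioneins respond to oxidative stress as well. Of 7 genes induced by NRF2, the oxidative stress factor, 2 fell and none rose, again beside 13.4% of all genes called higher and 10.9% lower. Gclm was not called with its brightest probe set (log2 difference -0.62 ± 0.21). Its dimmer probe set was called lower, at 320 and 285 in control and 118 and 139 in knockout arrays (-1.14 ± 0.12). The other uncalled genes of this list went both ways. Slc7a11 gave 0.30 and Hmox1 0.15, while Nqo1 gave -0.31 and Txnrd1 -0.04. Srxn1, sulfiredoxin, fell from 2742 and 2752 to 1311 and 1789 (log2 difference -0.84 ± 0.15, adjusted p = 0.00824 by limma). Osgin1 fell by 0.88 ± 0.23 on the log2 scale (adjusted p = 0.0305 by limma), a call lost without control replicate 1 (adjusted p = 0.0918) or control replicate 2 (adjusted p = 0.125), and just missed with a pseudocount of 1 (0.0501) or a trended and robust prior (0.0514). Of 9 copper handling genes, the copper importer Slc31a1 (CTR1) fell from 1209 and 1391 to 676 and 709.9 (-0.89 ± 0.11, adjusted p = 0.00230 by limma), with the same difference (-0.88) in its other probe set. The other 8 were not called.

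Likeness of pattern was measured as the distance between log2 values centred on the control mean, over the 4 arrays. Nearest to Mt1 were Sun2, Acsm3 and Ube2c (distances 0.23, 0.24 and 0.25). Nearest to Mt2 were Sesn2, Zbp1 and Igtp (0.53, 0.55 and 0.56). Nearest to Slc39a4 were Rab3c, Lrrcc1 and Vamp8, all at 0.02. With 4 arrays these are descriptions only.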

How the data were processed

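The deposited intensity of each probe set on each array, on a linear scale, was used as given. Per the labels' protocols, crypts were isolated using EDTA and a 70 um filter, and biotin-labelled RNA was put on Affymetrix arrays. The summary and scaling methods are not given in the sources used here, and no further scaling was applied. Of 45101 probe sets 64 were array controls and were left out of the fit. Gene names come from the platform annotation in GEO, updated to RefSeq symbols (GRCm38.p6). The values log2(intensity + 16) were fitted with limma 3.58.1 in R 4.3.3 (lmFit, eBayes, no block), over 45037 probe sets and, with the brightest probe set of each gene, over 18193 genes, and the fit was tested on simulated data. P-values measure only the spread between these samples, and 2 arrays per group limit the precision.

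The genes described, the gene lists and the likeness rule were chosen with earlier results of these data known. All probe sets of the 9 genes, all called genes of the other lists and Slc39a14, Slc39a7, Slc30a5, Mt3 and Mt4 were named by rule. The markers Lyz1, Alpi, Mki67 and Cpa1 were also named by rule. Some other genes named, such as Gclm, fall outside these rules. Alternatives were a pseudocount of 1 or 64, quantile normalization, median scaling, a filter on dim probe sets, a trended and robust prior, a replicate block, the dimmest probe set per gene and each array left out. Across genes, the gap between control replicates 1 and 2 correlated at r = 0.0986 with that between knockout replicates 1 and 2, and the labels do not pair the numbers, so the main fit has no block. Depth does not apply to arrays.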

Additional observations from a re-analysis of the deposited data

How the results depend on the processing

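Of the 17 probe sets, 16 kept their direction in every alternative, while the dimmer Slc30a1 probe set gave 0.04 without knockout replicate 1. Slc30a2, the brighter Slc30a10 probe set and the dimmer Mt1 probe set stayed called in all 11 alternatives run for them. The brighter Mt1 probe set and Mt2 stayed called in 6 of 11, Slc39a5 in 7 and Slc39a8 in 6. Member probe sets called higher numbered 4, but 1 with a pseudocount of 1, 2 with a trended and robust prior, and 1 to 3 with an array left out. Those called lower numbered 3, but 5 with a pseudocount of 64, 6 with dim probe sets left out, and 2 to 4 with an array left out. With an array left out, probe sets called higher ranged from 2056 to 4629 and lower from 1949 to 3908, against 4921 and 4092. Genes ranged from 1139 to 2293 higher and from 1032 to 2046 lower, against 2442 and 1992, and the 49 genes of the other lists from 4 to 5 higher and from 4 to 10 lower, against 6 and 6. Fewer arrays leave fewer degrees of freedom; for the other settings the cause was not tested. With the replicate block, 5425 probe sets were higher and 4536 lower, with 4 and 4 of the 17 and 6 and 8 of the 49 genes, and the labels give no pairing. No scaling moved the median of all probe sets by more than 0.1 (log2).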

Other observations

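The control arrays also stood apart in some glucocorticoid-induced genes, in the opposite order to the metallothioneins. Fkbp5 read 1947 in control replicate 1 and 1032 in control replicate 2, a log2 gap of 0.90, and Tsc22d3 943 and 656 (0.51). These gaps were larger than those of 99.9% and 98.8% of the 22518 probe sets brighter than the median. Zbtb16 read 232 and 46.6 (1.99), a gap larger than that of 99.99% of these probe sets, but it is itself dimmer than the median. Of the other 4 genes of that list, Sgk1 had a gap of 0.38, Per1 of 0.11, Klf9 of 0.01 and Dusp1 of -0.02, so the order was not shared by the whole list. These genes were singled out after their values were seen.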
